A study of Mus musculus with 375 samples.

Results

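The cells described here are 68 cells sorted for Lgr5 that a rule on marker transcripts assigned to the G1/S transition and S phase. Of the 375 cells, 367 had at least 2000 genes above 0 TPM and passed. A passing cell was counted as a G1/S and S phase cell when at least 3 of the 7 transcripts Cdc6, Ccne1, Ccne2, Mybl2, Uhrf1, Tcf19 and Cdc45 reached 10 TPM and fewer than 3 of the 7 G2/M transcripts Ccnb1, Ccnb2, Plk1, Prc1, Nusap1, Fam83d and Kif18b did. The other 299 passing cells fell into 119 cells with 3 or more of the G2/M transcripts, called G2/M cells here, and 180 cells with neither marker set. Because the cells were chosen by their own transcript levels, every contrast of them with the other cells is a description and carries no test.

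The study compared mice on a high-fat diet (HFD) with mice on a control diet. Lgr5 marks the stem cells at the base of the crypts of the small intestine, and single Lgr5-positive cells were isolated by flow cytometry and sequenced by Smart-seq2, which makes cDNA of one cell per well from polyadenylated RNA. The titles divide them into the sets HFD 1 and HFD 2 (93 and 94 cells) and control 1 and control 2 (94 and 94 cells). The labels give no strain, age, sex or length of feeding, nor whether a set is a separate mouse, so p-values cover only the spread between these sets, which may be technical. Values are TPM, a transcript's part of a cell's total after scaling to gene length, as RSEM gives it. Read depth cannot be recovered from TPM and is unknown here.

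Crypt base stem cells cycle continuously. In late G1 the E2F factors, freed from the retinoblastoma protein, switch on cyclin E and the replication genes; Cdc6 and Cdt1 load the MCM helicase onto origins, Cdc45 and GINS activate it, and Pcna clamps the polymerases to DNA. Genes of mitosis follow later and are held down in G1 by the DREAM complex, which binds promoters at the cell cycle homology region (CHR).

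Some promoters are shown because short words in them differ in share between the genes that were high and those that were low in these cells. Sequences are from RefSeq (GRCm38.p6), run 5′ to 3′ in the direction of transcription and cover 250 bases before to 50 bases after the transcription start. In the first 4, from genes at least 2-fold higher in G1/S and S phase cells than in the other cells of every set, capitals mark E2F words (TTCCCGC and, besides it, TTGGCGC, also the variant TTCGCGC and lastly the variant TTGCCGC, on either strand, overlapping words run together). In the last pair, from G2/M markers of the rule, capitals mark CHR words (TTTGAA and the variant TTCGAA, on either strand).
Cdc6 promoter, chr11:98907901-98908200, plus strand: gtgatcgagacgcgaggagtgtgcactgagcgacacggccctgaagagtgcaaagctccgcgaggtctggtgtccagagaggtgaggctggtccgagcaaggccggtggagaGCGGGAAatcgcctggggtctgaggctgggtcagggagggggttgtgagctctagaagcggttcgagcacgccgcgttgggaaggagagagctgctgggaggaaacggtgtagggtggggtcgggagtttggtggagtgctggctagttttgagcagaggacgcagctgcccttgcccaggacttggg
Mcm6 promoter, chr1:128359656-128359955, minus strand: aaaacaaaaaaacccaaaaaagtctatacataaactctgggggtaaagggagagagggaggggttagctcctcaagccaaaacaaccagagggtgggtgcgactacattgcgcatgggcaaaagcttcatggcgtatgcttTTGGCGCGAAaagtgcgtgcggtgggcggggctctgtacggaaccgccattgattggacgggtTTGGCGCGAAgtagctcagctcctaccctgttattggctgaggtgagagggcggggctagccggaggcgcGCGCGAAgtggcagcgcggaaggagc
Dtl promoter, chr1:191575495-191575794, minus strand: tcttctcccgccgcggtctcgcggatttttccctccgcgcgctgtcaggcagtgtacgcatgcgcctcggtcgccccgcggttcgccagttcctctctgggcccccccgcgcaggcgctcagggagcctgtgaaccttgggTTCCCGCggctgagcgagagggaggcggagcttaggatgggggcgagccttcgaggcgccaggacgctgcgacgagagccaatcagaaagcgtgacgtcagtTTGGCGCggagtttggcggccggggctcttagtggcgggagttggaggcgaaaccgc
Hells promoter, chr19:38930740-38931039, plus strand: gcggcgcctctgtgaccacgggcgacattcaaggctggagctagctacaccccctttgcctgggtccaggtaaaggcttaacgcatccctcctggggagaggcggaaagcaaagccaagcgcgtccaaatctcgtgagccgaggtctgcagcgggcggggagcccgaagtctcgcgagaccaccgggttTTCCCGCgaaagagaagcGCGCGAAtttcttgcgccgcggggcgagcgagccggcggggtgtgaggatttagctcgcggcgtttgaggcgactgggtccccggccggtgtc
Ccnb2 promoter, chr9:70421505-70421804, minus strand: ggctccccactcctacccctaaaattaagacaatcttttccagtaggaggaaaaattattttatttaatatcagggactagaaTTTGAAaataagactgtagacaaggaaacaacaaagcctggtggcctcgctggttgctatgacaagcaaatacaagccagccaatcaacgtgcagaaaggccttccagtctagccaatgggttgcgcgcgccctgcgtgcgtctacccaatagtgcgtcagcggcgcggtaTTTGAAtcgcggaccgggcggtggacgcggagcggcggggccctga
Plk1 promoter, chr7:122159185-122159484, plus strand: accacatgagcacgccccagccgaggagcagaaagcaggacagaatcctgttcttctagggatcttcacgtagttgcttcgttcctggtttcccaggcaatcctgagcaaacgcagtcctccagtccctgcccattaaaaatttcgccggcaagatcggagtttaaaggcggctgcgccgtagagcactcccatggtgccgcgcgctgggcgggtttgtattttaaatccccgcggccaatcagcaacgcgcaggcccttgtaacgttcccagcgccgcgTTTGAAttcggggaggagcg
An E2F word was found in 13 of the 20 promoters matched among the 26 genes at least 2-fold higher in G1/S and S phase cells in all 4 sets, against 9.57% of all RefSeq promoters, and a CHR word in 1 of these 20. Of the 100 genes at least 2-fold lower in all 4 sets, 61 had a matched promoter. All 61 were among the 76 that are not histone genes by name, so the shares do not cover the histone genes. A CHR word was found in 37 of these 61, against 19.2% of all promoters, and an E2F word in 8. CCAAT, the word bound by NF-Y, stood in 43 of the 61 and in 12 of the 20, against 37.4% of all promoters. Markers of the rule were counted in both groups, 5 G1/S markers among the 26 genes and 6 G2/M markers among the 100. The shares thus in part restate the rule. Among the rule markers themselves, an E2F word stood in 3 of 6 matched G1/S promoters and a CHR word in 5 of 7 G2/M promoters. A word is a match of letters and not a bound site, and no test was run on these shares because the genes were chosen by this contrast.

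G1/S and S phase cells made up a larger share of the HFD sets. They were 23 of 91 and 20 of 92 passing cells in HFD 1 and HFD 2, and 14 of 93 and 11 of 91 in control 1 and control 2. The shares were 25.3% (95% Clopper-Pearson interval 16.7 to 35.5%) and 21.7% (13.8 to 31.6%) in the HFD sets, and 15.1% (8.48 to 24.0%) and 12.1% (6.19 to 20.6%) in the control sets, where intervals cover counting error only. Both HFD sets lay above both control sets. The means were 23.5 ± 2.50% in the HFD sets and 13.6 ± 2.10% in the control sets (SD, n = 2 each), a difference of 9.94 percentage points against a pooled SD of 2.31. A two-sided exact permutation of the sets gave p = 0.333, which is the lowest 2 against 2 can reach. G2/M cells made up 36.3% and 29.3% of the HFD sets and 30.1% and 34.1% of the control sets, which overlapped (exact permutation p = 1.0).

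**Figure D1:**
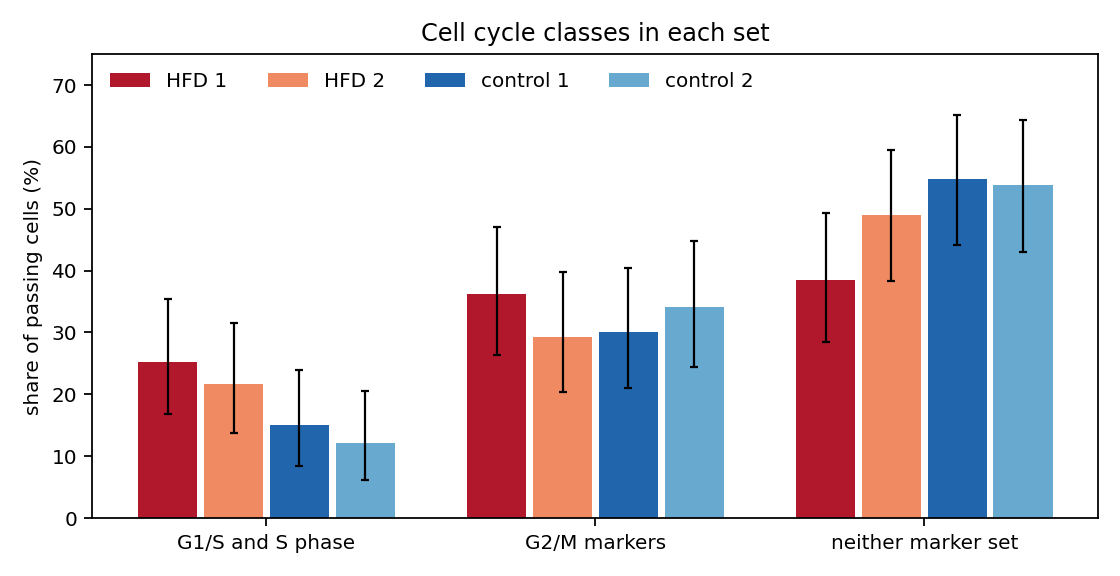
Share of passing cells (%) in each cell cycle class, with 1 bar per set and 95% Clopper-Pearson intervals. The G1/S and S phase bars stand at 25.3% and 21.7% in the HFD sets and at 15.1% and 12.1% in the control sets, while the G2/M bars overlap between diets.

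The choice of cells left a graded class. Of the 68 cells, 20 held 3 of the 7 G1/S transcripts, 13 held 4, 16 held 5, 11 held 6 and 8 held all 7. The median Pcna of the members with 3 was 284 TPM, against 328 TPM in the 21 passing cells just outside the threshold, with 2 of them and fewer than 3 G2/M transcripts. Of the members 33 held no G2/M transcript at 10 TPM, 23 held 1 and 12 held 2. A further 57 cells held 3 or more of both marker sets and were counted with the G2/M cells. Median genes per cell were 6922 and 6734 in the G1/S and S phase cells of the HFD sets and 7422 and 6473 in those of the control sets, against 6686 and 6180 (HFD) and 6766 and 6044 (control) in the other cells.

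Cyclin E and the partners that start S phase marked the class, as the rule set. Cdc6, the helicase loader, averaged 33.0 and 31.0 TPM in the HFD sets and 29.1 and 42.9 TPM in the control sets in G1/S and S phase cells, against 5.49 and 5.96 TPM (HFD) and 1.57 and 2.41 TPM (control) in the other cells. It was at 10 TPM or more in 79.4% of these cells, in 18.5% of G2/M cells and in 3.3% of cells with neither marker set. Ccne1, cyclin E1, averaged 36.3 and 60.3 TPM in the HFD sets and 22.2 and 65.5 TPM in the control sets, against 12.8 and 16.8 TPM (HFD) and 2.05 and 5.57 TPM (control) in the other cells. Uhrf1, which carries DNA methylation onto new strands, was at 10 TPM or more in 67 of the 68 cells and Ccne2 in 27. On the log2(mean TPM + 1) scale, used for every difference below and understating that of low genes, the 7 markers lay between 1.62 and 2.96 above the other cells, as means of 4 sets.

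Outside the rule, the licensing and replication genes were high in the same cells. Over all 11632 genes tested, 26 (0.224%) were at least 2-fold higher than in the other cells of the same set in all 4 sets, and 100 (0.86%) at least 2-fold lower. Apart from Cdc6, Ccne1, Ccne2, Uhrf1 and Tcf19 of the rule, the 26 included E2f1, Cdt1, Mcm3, Mcm4, Mcm6, Gins2, Clspn, Pold1, Pcna, Chaf1a, Hells, Ung, Zfp367, Dtl, Ppap2a, Pask, Alkbh2, Slfn9, Tmem86a and Fam196a. By any amount, 7.96% of genes were higher in all 4 sets and 12.9% lower, and the median difference of all genes was −0.08.

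Of the 15 licensing genes that the rule did not use, 10 were higher in all 4 sets and 1 was lower, with a median difference of 1.02. Mcm6, a subunit of the replicative helicase, averaged 383 and 442 TPM in the HFD sets and 294 and 440.2 TPM in the control sets, against 149.96 and 175 TPM (HFD) and 113 and 146 TPM (control) in the other cells. Every set of G1/S and S phase cells lay above every set of other cells, with a difference of 1.41 ± 0.12 (SD over 4 sets). Cdt1, the partner of Cdc6 in loading the helicase, averaged 129 and 188 TPM in the HFD sets and 129.9 and 239.8 TPM in the control sets, against 55.0 and 63.9 TPM (HFD) and 52.9 and 49.2 TPM (control) in the other cells. Its mean level was 55.1 TPM in G2/M cells and 55.9 TPM in cells with neither marker set. Mcm3, Mcm4 and Mcm5 lay 1.52 ± 0.50, 1.35 ± 0.30 and 1.45 ± 0.51 above the other cells. Orc3, a subunit of the origin recognition complex, lay lower in all 4 sets, at −0.37 ± 0.16.

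Among 14 genes of origin firing, 10 were higher in all 4 sets and 1 lower (median 0.94). Gins2, a subunit of the GINS complex that activates the helicase, averaged 74.7 and 144 TPM in the HFD sets and 91.0 and 102 TPM in the control sets, against 34.8 and 43.5 TPM (HFD) and 24.3 and 32.4 TPM (control) in the other cells. Gins1, another subunit of that complex, averaged 41.9 and 35.9 TPM in the HFD sets and 35.1 and 26.7 TPM in the control sets, against 29.3 and 24.1 TPM (HFD) and 6.78 and 7.96 TPM (control) in the other cells. The difference for Gins1 was 0.50 and 0.56 in the HFD sets and 2.21 and 1.63 in the control sets, and its level in the other cells was higher in the HFD sets than in the control sets. Cdc7, the kinase that fires origins, lay 1.16 ± 0.18 higher, whereas its activator Dbf4 differed by −1.06 ± 1.17 from the other cells.

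Of 29 genes of the replication fork, 24 were higher in all 4 sets and none was lower, with a median difference of 0.83. Pcna, the sliding clamp, lies on chromosome 2 (132249162 to 132253314, minus strand; GENCODE M21, GRCm38). It averaged 560.2 and 612 TPM in the HFD sets and 359.9 and 418 TPM in the control sets, against 240.5 and 258 TPM (HFD) and 136 and 129 TPM (control) in the other cells. A level of 10 TPM or more was found in 67 of the 68 cells, and also in 85.7% of G2/M cells and in 78.3% of cells with neither marker set, where its mean level was 282 and 125 TPM. Pold1, the catalytic subunit of polymerase delta, lay 1.18 ± 0.08 higher. Pola1 and Pola2, subunits of the primase polymerase, lay 1.12 ± 0.27 and 1.13 ± 0.25 higher.

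Nucleotide supply was higher for 15 of 20 genes and lower for 1 (median 0.51). Rrm2, the regulatory subunit of ribonucleotide reductase, averaged 73.2 TPM in G1/S and S phase cells, 96.9 TPM in G2/M cells and 3.20 TPM in cells with neither marker set. Tk1, the cytosolic thymidine kinase, averaged 145 TPM in G1/S and S phase cells, 207 TPM in G2/M cells and 13.9 TPM in cells with neither marker set. Both were thus lower on average than in G2/M cells, although in all 4 sets above the other cells as a whole. The mitochondrial kinase Tk2 was the member that lay lower in all 4 sets (−0.79 ± 0.71).

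Of 14 genes of chromatin duplication, 10 were higher in all 4 sets (median 0.81) and 1 was lower, H2afx, a histone variant of DNA damage, at −1.57 ± 0.70. Chaf1a and Chaf1b, subunits of the chromatin assembly factor that travels with Pcna, lay 1.55 ± 0.60 and 1.52 ± 0.90 higher. Hells, a chromatin remodeller, averaged 41.5 and 56.5 TPM in the HFD sets and 52.7 and 64.6 TPM in the control sets, against 15.9 and 24.2 TPM (HFD) and 13.9 and 11.0 TPM (control) in the other cells. Slbp, which binds the stem-loop of histone messages, lay 0.82 ± 0.25 higher.

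Of 22 genes of DNA repair and the replication checkpoint, 11 were higher in all 4 sets and 1, Esco2, was lower (median 0.67). Ung, the glycosylase that removes uracil from DNA, averaged 78.4 and 98.4 TPM in the HFD sets and 92.0 and 119.9 TPM in the control sets, against 28.5 and 26.8 TPM (HFD) and 24.0 and 22.5 TPM (control) in the other cells. Its order differed from that of the fork genes, with 97.2 TPM in G1/S and S phase cells, 15.7 TPM in G2/M cells and 32.2 TPM in cells with neither marker set. The mean difference from G2/M cells was 2.55, larger than that from cells with neither marker set, 1.56. Chek1, the checkpoint kinase, lay 1.02 ± 0.48 above the other cells.

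Of the 27 genes of G1/S control outside the rule, 8 were higher in all 4 sets and 4 lower. Of all genes, 7.96% were higher and 12.9% lower, so the count of lower genes was near that of all genes. E2f1, itself an E2F target, averaged 14.8 and 17.1 TPM in the HFD sets and 16.3 and 13.7 TPM in the control sets, against 5.83 and 6.06 TPM (HFD) and 4.94 and 4.23 TPM (control) in the other cells. Cdk2, the kinase of cyclin E, lay 0.65 ± 0.12 higher and Skp2, which marks p27 for degradation, 0.63 ± 0.25 higher. The 4 lower genes were Ccna2, E2f5, Cdkn2d and Fbxo5. Ccna2, cyclin A2, averaged 35.3 TPM in G1/S and S phase cells, 265 TPM in G2/M cells and 11.7 TPM in cells with neither marker set. Ccnd1, cyclin D1, differed by 0.41 ± 0.45 and the inhibitor Cdkn1a (p21) by 0.45 ± 0.75, and neither had 1 direction in all 4 sets. Myc lay 0.22 ± 0.11 above the other cells, higher in all 4 sets.

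Outside the lists, Zfp367, a zinc finger factor, and Dtl, which directs the degradation of Cdt1 on chromatin, had the largest differences, 1.71 ± 0.23 and 1.50 ± 0.22. Alkbh2, a DNA alkylation repair enzyme, averaged 19.7 TPM in G1/S and S phase cells, 4.50 TPM in G2/M cells and 7.25 TPM in cells with neither marker set. The rest of the 12 highest outside the lists were Ppap2a, Pask, Slfn9, Tmem86a, Fam196a, Coro2a, Tmem50b, Nlrc3 and Mybpc2. Nlrc3 and Mybpc2 rested on few cells, with 4 and 5 of the 68 at 10 TPM or more.

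**Figure D2:**
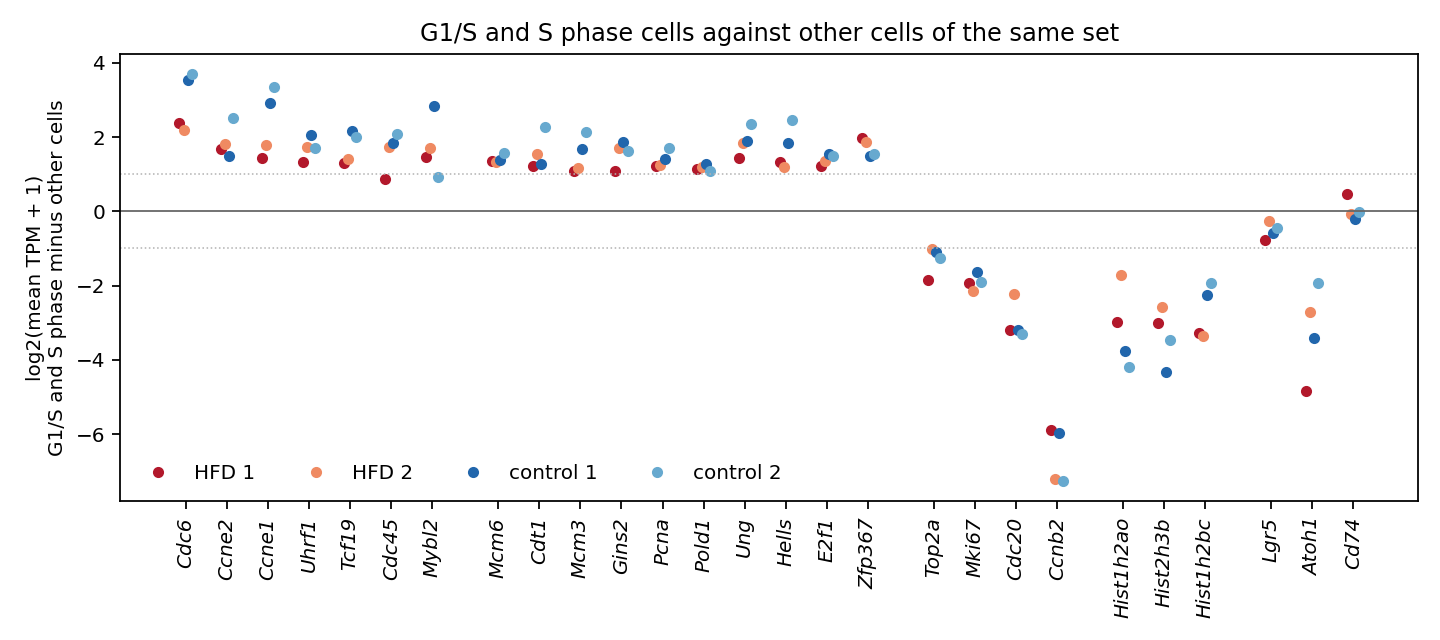
Difference in log2(mean TPM + 1) between G1/S and S phase cells and the other passing cells of the same set, with 1 point per set, for the rule markers, other replication genes, G2/M genes, histone genes and 3 further genes. Dotted lines mark a 2-fold difference. Ccnb2 lies −6.58 from 0 on average, Cdc6 2.96 and Lgr5 −0.51.

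Transcripts of mitosis were low. Of 50 G2/M genes outside the rule, 46 were lower in all 4 sets and none was higher (median −1.87). Ccnb2, cyclin B2 and a marker of the rule, averaged 1.85 and 0 TPM in the HFD sets and 0.962 and 0 TPM in the control sets, against 167 and 147 TPM (HFD) and 123 and 153 TPM (control) in the other cells. Cdc20, an activator of the anaphase-promoting complex, averaged 11.3 TPM in G1/S and S phase cells, 216 TPM in G2/M cells and 11.1 TPM in cells with neither marker set. Mki67, the proliferation antigen Ki-67, averaged 13.7 and 7.14 TPM in the HFD sets and 13.04 and 10.6 TPM in the control sets, against 54.8 and 34.7 TPM (HFD) and 42.4 and 42.8 TPM (control) in the other cells, and reached 10 TPM in 27 of the 68 cells. Its mean was 96.7 TPM in G2/M cells and 8.45 TPM in cells with neither marker set. Top2a, topoisomerase II alpha, lay between those classes, with 49.0 TPM in G1/S and S phase cells, 297 TPM in G2/M cells and 5.54 TPM in cells with neither marker set. Of the 12 lowest genes outside the lists, 6 were histone genes and the others Cdkn3, Parpbp, Mxd3, Iqgap3, Pif1 and Arhgap19.

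Against cells with neither marker set, the same G2/M list was not low. Its median difference was 0.76, and 25 of the 50 genes were higher in all 4 sets, against 10.9% of all genes in that contrast. The centromere list, with 1 of 12 genes higher and 4 lower than in the other cells together (median −0.19), likewise lay 1.13 above the cells with neither marker set. Of all genes, 7.96% were higher and 12.9% lower than in the other cells together in all 4 sets. Cenpk, of the constitutive centromere network, averaged 29.2 TPM in G1/S and S phase cells, 35.3 TPM in G2/M cells and 2.997 TPM in cells with neither marker set. Cenpa, the centromeric histone, averaged 3.78 TPM in G1/S and S phase cells, 138 TPM in G2/M cells and 22.4 TPM in cells with neither marker set, and so lay below both.

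Histone transcripts were far from the level of G2/M cells. Summed over the 68 replication-dependent and other genes with Hist names, a cell held on average 192 and 325 TPM in the G1/S and S phase cells of the HFD sets and 189 and 162 TPM in those of the control sets, against 2397 and 2637 TPM (HFD) and 2583 and 2482 TPM (control) in G2/M cells. Of the 53 that were tested, 37 were lower in all 4 sets than in the other cells and none was higher (median −1.82). In cells with neither marker set the sums were 534 and 362 TPM (HFD) and 245 and 364 TPM (control), above the G1/S and S phase cells in every set. Against those cells 13 of the 53 were lower in all 4 sets and 3 higher (median −0.21). Of all genes, 11.6% were lower and 10.9% higher in that contrast. Hist1h2ao, an H2A gene, averaged 67.7 TPM in G1/S and S phase cells, 1059.9 TPM in G2/M cells and 10.4 TPM in cells with neither marker set. Hist1h2bc, an H2B gene, had another order, with 23.4 TPM in G1/S and S phase cells, 95.04 TPM in G2/M cells and 209.6 TPM in cells with neither marker set. Averaged over sets, it made up a large part of the sum in cells with neither marker set. The order of the sums between those cells and the G1/S and S phase cells thus rests largely on Hist1h2bc. Most replication-dependent histone messages lack a poly(A) tail, which this library method primes on, and the gene copies are near-identical, so a level of a single copy is uncertain. Whether a cell was in S phase, and how far into it, was not measured.

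**Figure D3:**
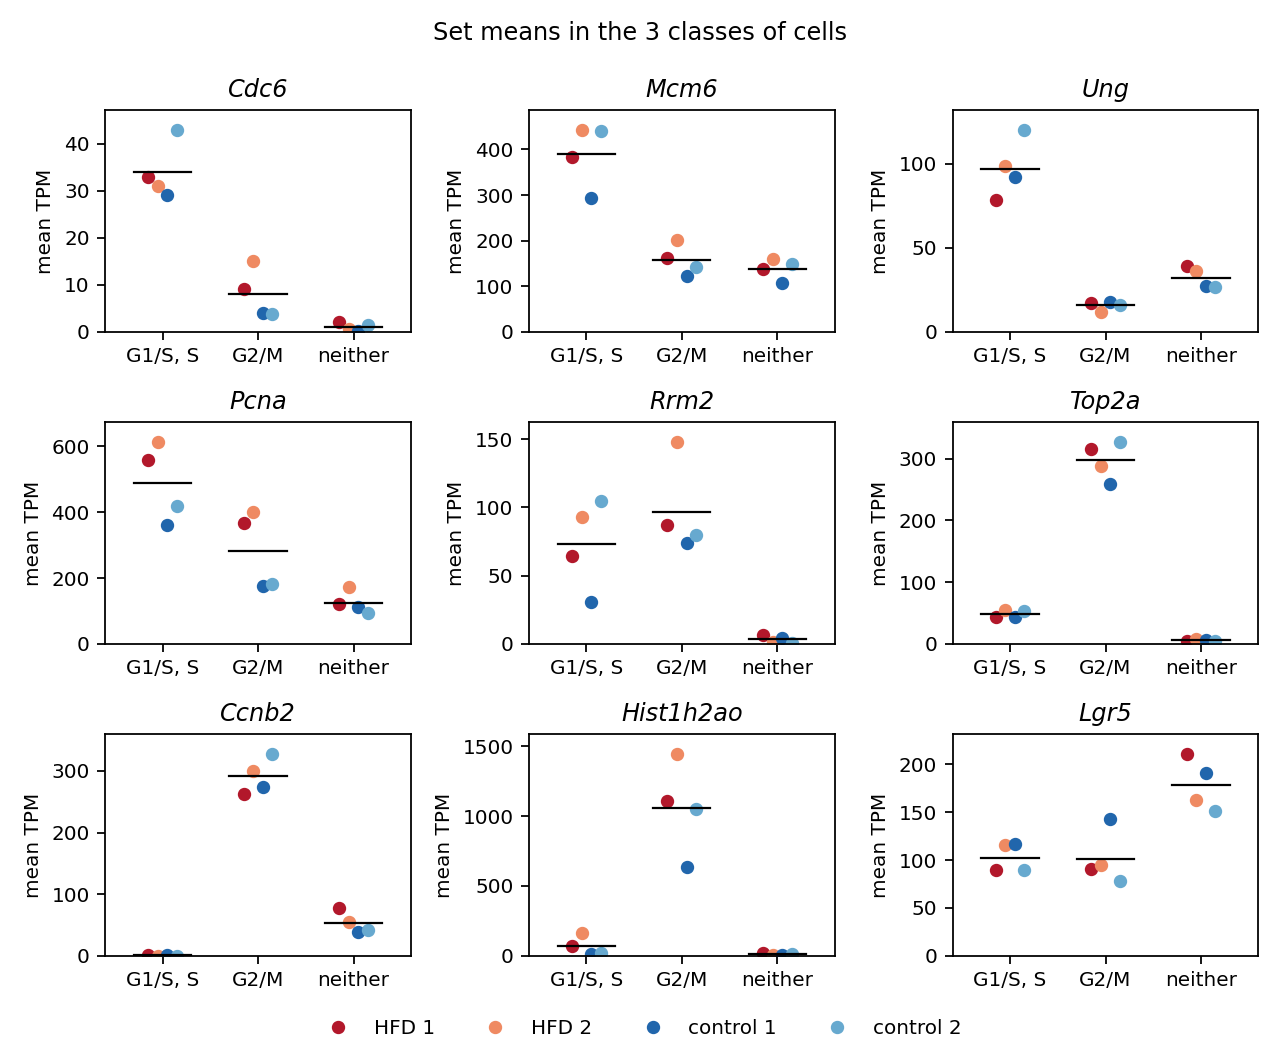
Mean TPM of 9 genes in G1/S and S phase cells, G2/M cells and cells with neither marker set. Points are sets and lines the means of 4 sets. Cdc6, Mcm6, Ung and Pcna are highest in G1/S and S phase cells, Top2a, Ccnb2 and Hist1h2ao in G2/M cells, and Lgr5 in cells with neither marker set.

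Stem cell transcripts were present in nearly all of these cells. Olfm4 was at 10 TPM or more in all 68 and Lgr5 in 60. Lgr5 averaged 89.2 and 115 TPM in the HFD sets and 117 and 89.1 TPM in the control sets, against 152 and 137 TPM (HFD) and 174 and 123 TPM (control) in the other cells, lower in all 4 sets (−0.51 ± 0.21). By class its means were 103 TPM in G1/S and S phase cells, 102 TPM in G2/M cells and 179 TPM in cells with neither marker set, so the G1/S and S phase cells and the G2/M cells did not differ by more than the spread between sets. Of the 20 stem cell genes, 5 were lower in all 4 sets and none was higher (median −0.14), against 12.9% and 7.96% of all genes. The 5 were Lgr5, Tnfrsf19, Rgmb, Nrn1 and Slc12a2. Ascl2, the stem cell transcription factor, differed by 0.19 ± 0.30 and Olfm4 by −0.13 ± 0.27, with sets on both sides of 0.

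Atoh1, the factor that commits progenitors to secretory fates, was almost missing. It averaged 0.210 and 0 TPM in the HFD sets and 0 and 0 TPM in the control sets in G1/S and S phase cells, against 33.4 and 5.498 TPM (HFD) and 9.71 and 2.81 TPM (control) in the other cells. None of the 68 cells reached 10 TPM. Taken as 3 divided by the number of cells, this allows a share of up to 4.41%. That limit treats the cells of all 4 sets as independent, which they are not. The share of the other cells at 10 TPM is not reported here, and their means may rest on few cells. Of the 11 genes of the Notch and fate list tested, 2 were lower in all 4 sets and none was higher. Of all genes, 12.9% were lower and 7.96% higher. Spdef, which acts below Atoh1 in goblet cells, lay −1.86 ± 1.29 from the other cells. The 8 goblet markers tested had a median of −2.76, with 3 lower in all 4 sets. Their summed level was 93.3 and 85.9 TPM (HFD) and 20.2 and 194 TPM (control) in the G1/S and S phase cells, against 934 and 735 TPM (HFD) and 615 and 59.8 TPM (control) in the other cells. It was thus lower in 3 sets and higher in control 2. Of the members 3 of the 68 held 3 or more goblet markers.

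Paneth transcripts were unevenly spread. The 12 Paneth markers summed to 17780 and 177 TPM per cell in the G1/S and S phase cells of HFD 1 and HFD 2 and to 28.5 and 29.0 TPM in those of control 1 and control 2, against 40.0 to 563 TPM in the other cells. Of the 7 members with 3 or more Paneth markers, 5 were in HFD 1, 1 in HFD 2 and 1 in control 1. Ptprc, the leukocyte marker CD45, was at 0 in all members, and the T and NK cell, B and plasma cell, myeloid and stromal lists summed to at most 9.87 TPM in any set.

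Within the 68 cells, the number of G1/S transcripts went with the fork and G2/M lists. Spearman's rho between that number and the mean log2(TPM + 1) of the fork list was 0.76 (0.83 and 0.84 in the HFD sets, 0.71 and 0.51 in the control sets), and with the G2/M list outside the rule 0.66. With Top2a it was 0.67. With the stem list it was −0.07, at 0.16 and −0.01 in the HFD sets and −0.17 and −0.53 in the control sets. With the number of genes detected it was 0.11, at 0.20 and −0.18 in the HFD sets and 0.46 and 0.67 in the control sets. The points are cells that share sets and library preparation, so these are descriptions.

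Against G2/M cells alone, 19 genes (0.163%) were at least 2-fold higher in all 4 sets and 188 (1.62%) lower, and by any amount 8.1% of genes were higher in all 4 sets and 12.7% lower. The 19 included Cdc6 of the rule and E2f1, Cdt1, Mcm3, Mcm4, Mcm6, Ung, Alkbh2 and Ppap2a, but not Pcna (0.86 on average). Of the 29 fork genes 12 were higher than in G2/M cells in all 4 sets and 1 lower, and none was 2-fold higher in all 4. Of the 15 licensing genes 8 were higher and 1 lower, and 4 were 2-fold higher in all 4 sets. Against cells with neither marker set, 132 genes (1.13%) were at least 2-fold higher in all 4 sets and 22 (0.189%) lower, and by any amount 10.9% were higher and 11.6% lower. There 14 of the 29 fork genes and 6 of the 15 licensing genes were among the 132. Cdc45 and Rrm2 lay 4.84 and 4.23 above those cells, and E2f8, a late E2F factor that represses its targets, 3.74 above them.

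Whether diet changed the transcripts of these cells was tested between the 2 HFD and the 2 control sets. Of 11525 genes, 1 (0.00868%) passed, Fabp1, which was higher in HFD, and 759 (6.59%) had an unadjusted p under 0.05. Fabp1, which binds fatty acids inside enterocytes and hepatocytes, lies on chromosome 6 (71199827 to 71205023, plus strand; GENCODE M21, GRCm38). It averaged 386 and 411 TPM in the HFD sets and 75.1 and 64.7 TPM in the control sets (log2 2.50, SE 0.31, limma adjusted p = 0.0213). Both HFD sets lay above both control sets. A level of 1 TPM or more was found in 19 of 23 and 17 of 20 of the HFD cells and in 8 of 14 and 7 of 11 of the control cells. The median cell held 272 TPM among the HFD cells and 44.8 TPM among the control cells, with a highest value of 1857 TPM (HFD) and 336 TPM (control). The same direction was seen in the other cells, where Fabp1 differed by 3.70. The Fabp1 call did not hold with a pseudocount of 0.1 (adjusted p = 0.0522), with Rn45s left out of the total (0.214), with median-ratio scaling (0.0795), with no filter on low genes (0.795), with at least 4 of the 7 markers (0.0841) or without any 1 of the sets (0.584 to 0.9995), while its log2 difference stayed between 2.28 and 2.94 in all settings tried.

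The ribosomal RNA precursor Rn45s took a median of 26.8% and 18.6% of TPM in the HFD cells and 38.4% and 22.7% in the control cells of this class. The median log2 difference between diets over all genes was 0.18 with TPM as deposited and 0.01 without Rn45s. Both HFD sets lay above both control sets for 24.8% of genes and below them for 11.5%, and for 17.4% and 15.8% with Rn45s left out. List medians are therefore stated after subtracting the median of all genes. The 10 TPM threshold of the rule was applied to TPM as deposited, so whether Rn45s shifted the shares of the classes was not tested.

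MHC class II transcripts, which present antigen to CD4 T cells, lay lower in the HFD sets for 7 of 7 genes tested, and none passed in the diet test described above. The list's median was −1.33 relative to all genes, and both scalings kept all 7 below. Cd74, the invariant chain, averaged 249 and 164 TPM in the HFD sets and 441 and 458 TPM in the control sets (log2 −1.15, SE 0.33, limma adjusted p = 0.637). H2-Aa, an alpha chain, averaged 56.8 and 55.1 TPM in the HFD sets and 100.4 and 180.1 TPM in the control sets (log2 −1.25, SE 0.37, limma adjusted p = 0.637). H2-Ab1, its partner beta chain, averaged 134 and 99.2 TPM in the HFD sets and 192 and 360.3 TPM in the control sets (log2 −1.18, SE 0.36, limma adjusted p = 0.637). In each of the 3 the HFD sets lay below both control sets. Cd74 was at 1 TPM or more in 15 of 23 and 10 of 20 of the HFD cells and in 13 of 14 and 10 of 11 of the control cells. The call depended on the averaging, on the cells kept and on the model. All 3 also passed under a replicate block, a pairing that no label gives. With log2(TPM + 1) averaged per cell, Cd74, H2-Ab1 and H2-Aa differed by −3.87, −3.64 and −3.44 and passed (limma adjusted p = 0.00412, 0.00766 and 0.0381). With the cells of 3 or more G2/M markers kept, H2-Aa and H2-Ab1 differed by −2.12 and −1.82 and passed (limma adjusted p = 0.00316 and 0.0142), while Cd74 did not. Without control 2, H2-Aa and H2-Ab1 differed by −0.83 and −0.73. Ciita, the class II transactivator, averaged 11.0 and 7.45 TPM in the HFD sets and 22.4 and 15.4 TPM in the control sets (log2 −0.96, SE 0.56, limma adjusted p = 0.788).

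Of 18 genes of protein folding in the endoplasmic reticulum, 13 had both HFD sets above both control sets and none below, 12 under either scaling, with a median of 0.51 relative to all genes and no call. Calr, the chaperone calreticulin, averaged 239 and 153 TPM in the HFD sets and 72.2 and 102 TPM in the control sets (log2 1.15, SE 0.35, limma adjusted p = 0.637). Hspa5, the chaperone BiP, averaged 189 and 179 TPM in the HFD sets and 105 and 123 TPM in the control sets (log2 0.69, SE 0.31, limma adjusted p = 0.751). Of 19 lipid genes, 10 had both HFD sets above and 1 below, 10 and 3 without Rn45s and 9 and 3 with median-ratio scaling, and of these Fabp1 passed. Their median was 0.23 relative to all genes and ranged from 0.092 without control 1 to 0.43 without HFD 1. Fabp1 was also among the 10 enterocyte markers tested between diets. Of these, 4 had both HFD sets above and 1 below, 5 and 1 without Rn45s and 4 and 1 with median-ratio scaling. The enterocyte median was 0.43 relative to all genes. Of 20 genes of cholesterol synthesis, 7 had both HFD sets above and 2 below, 5 and 1 without Rn45s and 7 and 2 with median-ratio scaling. Their median was 0.30 relative to all genes, but 0.062 without control 2, 0.12 without HFD 1 and 0.48 without HFD 2. Over all genes, 24.8% had both HFD sets above and 11.5% below, and 17.4% and 15.8% without Rn45s. Sqle, squalene epoxidase, averaged 22.0 and 15.1 TPM in the HFD sets and 15.6 and 0 TPM in the control sets (log2 2.24, SE 1.02, limma adjusted p = 0.751), with overlapping sets. Its difference was 0.22 without control 2 and 4.27 without control 1.

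The levels of the 7 G1/S markers within these cells are in part fixed by the rule and are only described. With TPM as deposited, none of the 7 had HFD sets and control sets that did not overlap, and under both other scalings 1 had both HFD sets below, with a median of −0.23 relative to all genes. Of the 16 licensing genes, 2 had both HFD sets above and none below, 1 and 2 without Rn45s and 2 and 1 with median-ratio scaling. Their median was −0.03 relative to all genes and became 0.21 without control 2. Of the 29 fork genes, 10 had both HFD sets above and 3 below, 8 and 4 without Rn45s and 7 and 7 with median-ratio scaling. Over all genes, 24.8% had both HFD sets above and 11.5% below with TPM as deposited. The fork median was −0.09 relative to all genes, and it ranged from −0.20 without HFD 2 to 0.10 without HFD 1. Pcna averaged 586 ± 36.8 TPM in the HFD sets and 389 ± 41.1 TPM in the control sets (SD, n = 2 each; log2 0.59, SE 0.32, limma adjusted p = 0.778). Cenpk averaged 41.1 and 43.7 TPM in the HFD sets and 16.4 and 15.5 TPM in the control sets (log2 1.36, SE 0.43, limma adjusted p = 0.637), with both HFD sets above. Lgr5 differed by −0.01 (SE 0.34) and Mki67 by −0.22 (SE 0.61). A p that misses the threshold does not show that the diets were alike.

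**Figure D4:**
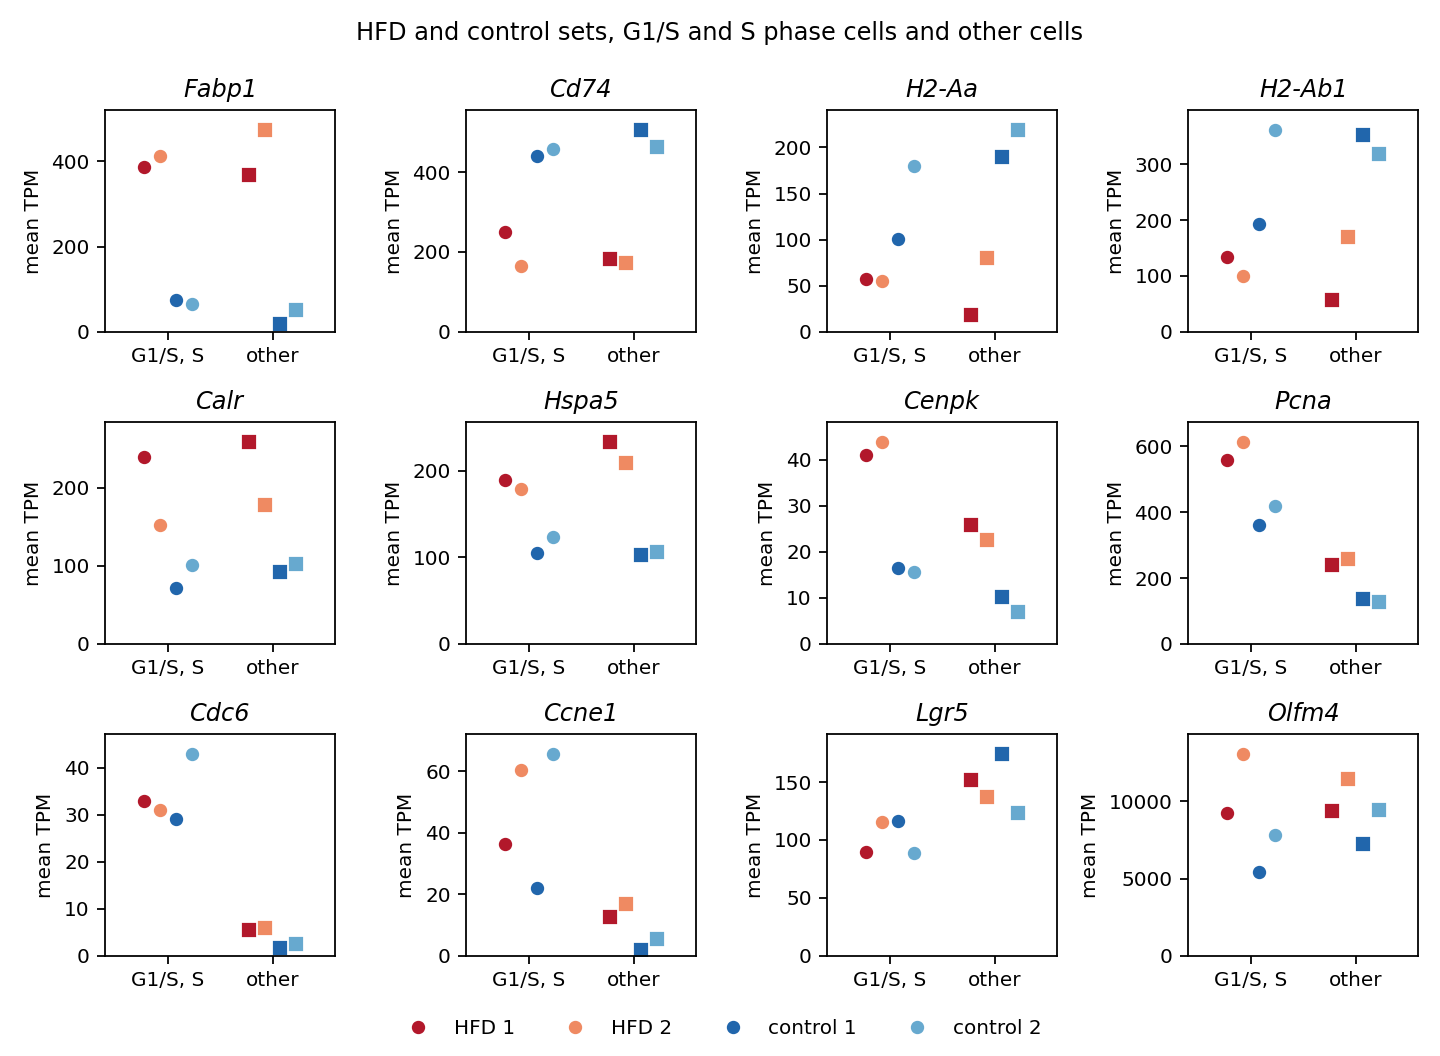
Mean TPM of 12 genes in G1/S and S phase cells (circles) and in the other passing cells (squares) of each set. Fabp1 stands at 386 and 411 TPM in the HFD sets and at 75.1 and 64.7 TPM in the control sets of G1/S and S phase cells, and Cd74 at 249 and 164 TPM against 441 and 458 TPM.

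The difference of the diet effect between G1/S and S phase cells and the other cells was tested directly. Of 11632 genes, 0 passed (limma, smallest adjusted p = 0.838), and 653 (5.61%) had an unadjusted p under 0.05. In simulated data this test recovered 33.1% of changes of log2 4, so the count of 0 does not show that the classes responded alike. Cdc6 differed between diets by −0.14 in G1/S and S phase cells and by 1.18 in the other cells, and Ccne1 by 0.28 and 1.81. Both are markers of the rule, so these values are a description. H2-Aa differed by −1.25 and −2.36, and Fabp1 by 2.50 and 3.70 (adjusted p of the difference = 0.901).

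Lyz1, the Paneth lysozyme, was listed at 0 in both control sets of G1/S and S phase cells and did not pass (limma adjusted p = 0.0735). It passed with a mean of at least 5 TPM required (limma adjusted p = 0.00425), with a marker threshold of 5 TPM (0.0159) and with the cells of 3 or more G2/M markers kept (0.000264). It averaged 1441 and 30.8 TPM in the HFD sets and 0 and 0 TPM in the control sets, and was at 1 TPM or more in 9 of 23 and 3 of 20 of the HFD cells and in none of the 14 and 11 control cells. One cell held 30624 TPM. Without the 7 cells that held 3 or more Paneth markers, and the other cells that did, Fabp1 still passed (log2 2.49, SE 0.30, adjusted p = 0.0381) and the adjusted p of Lyz1 was 0.66. Reg3g, an antimicrobial lectin, averaged 61.8 and 20.3 TPM in the HFD sets and 713 and 75.2 TPM in the control sets (log2 −2.67, SE 0.77, limma adjusted p = 0.637), and was highest in control 1. Its difference was −1.06 without control 1 and −4.29 without control 2, and it passed with the cells of 3 or more G2/M markers kept (−2.82, limma adjusted p = 0.00299).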

How the data were processed

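Single-cell Smart-seq2 libraries of Lgr5-sorted cells were analysed from the deposited table of TPM values (23420 genes, 375 cells). Per the submitters' processing notes, the authors used Bowtie2, RSEM and the build mm10; no version and no annotation is given there. Depth is unknown, and 27 rows whose symbols had become dates were left out of the tests. Each cell's set came from its title. TPM was averaged over the cells of a class in each set, and log2(mean + 1) was compared with limma 3.58.1 (R 4.3.3), with a mean-variance trend between diets and without one for members minus other cells, two-sided, with Benjamini-Hochberg adjustment over all genes averaging 1 TPM or more and a threshold of 0.05. Shares were compared by exact permutation of the 4 sets. Scripts used Python 3.11.15, pandas 2.3.3 and scipy 1.17.1, and the limma steps were tested on simulated data. Genes named are those that passed, the 14 rule markers, up to 6 per list with the largest smallest difference and those going the other way, the 12 highest and lowest outside lists, and 18 set by name; a few are given only in counts or are not reported here. The members and the 27 gene lists were chosen with earlier results of these data known. Alternatives covered pseudocount, filters, scaling, averaging, the member rule, each set left out and a replicate block. No doublet caller was run on cells sorted into wells.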

Additional observations from a re-analysis of the deposited data

How the results depend on the processing

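The share of G1/S and S phase cells kept its direction in the settings tried, with a difference between 7.70 and 11.7 percentage points, 8.17 to 11.7 with each set left out. All of these set the classes on TPM as deposited. The classes were not set again with Rn45s left out or with median-ratio scaling, so the share under those scalings is unknown. No setting called a gene for a diet difference that differed between classes. In simulated data this test recovered 0.30% of changes of log2 2 and 33.1% of those of log2 4. The diet test in members recovered 25.7% and 73.4%. A count of 0 in every setting therefore does not show that the classes responded alike. The single diet call moved between settings. The number of called genes was 0 with a pseudocount of 0.1, with no filter on low genes, with Rn45s left out, with median-ratio scaling and with at least 4 of the 7 G1/S markers, 4 with a marker threshold of 5 TPM, 6 with log2 values averaged per cell, 9 with a mean of at least 5 TPM and 18 with the cells of 3 or more G2/M markers kept. With each set left out it was 0 to 0. With the set number as a replicate block it was 80, 68 higher and 12 lower. The numbers do not pair the sets by any label, and the deviations of same-numbered sets correlated at 0.05 across genes in members and 0.22 in the other cells, so the paired fit is not read further. The 26 genes at least 2-fold higher and 100 lower became 75 and 17 with log2 values averaged per cell, 96 and 5 with the cells of 3 or more G2/M markers kept, and, chosen after seeing the data, 132 and 22 against the cells with neither marker set. With each set left out they numbered 39 to 52 and 152 to 170, where fewer sets had to meet the threshold. Of 305 values of single genes under other settings, 257 kept direction and call. A gene not called as reported became called in 9 of them, for Cd74, H2-Aa, H2-Ab1, Reg3g and Lyz1, and in 7 more under the replicate block, for these and Olfm4 and Calr. List medians moved by over 1.5 times for the licensing, fork, lipid, cholesterol synthesis and ER folding lists with 1 set left out, the last to 0.32 without control 1. The median of the G2/M list, 0.22 relative to all genes, became −0.05 without control 2. The median of the stem list, −0.05, became 0.17 without control 1 and −0.21 without control 2. The log2 diet difference turned for 6 genes, none called there. Mki67 became 0.13 with at least 2 markers, and ranged from −0.65 to 0.21 with each set left out. Lgr5 became 0.65 with at least 4 markers, ranged from −0.20 to 0.18 with each set left out, and was 0.16 without the Paneth-marked cells, the last added after seeing the data. Ascl2 ranged from −0.0065 to 0.73 with each set left out. Ccnd1 became −0.18 without Rn45s, −0.18 with median-ratio scaling, −0.24 with at least 4 markers, −0.0066 with the 5 TPM threshold and −0.11 with G2/M-marked cells kept, and ranged from −0.30 to 0.30 with each set left out. Myc became −0.18 without Rn45s, −0.16 with median-ratio scaling, −0.20 with log2 values averaged per cell, and −0.11 with at least 2 markers, and ranged from −0.25 to 0.29 with each set left out. Cdkn1a became 0.056 with log2 values averaged per cell, 0.029 with at least 2 markers and 0.22 with G2/M-marked cells kept. The cause was not tested. With 2 sets per diet and 11 to 23 of these cells a set, only large differences could be called.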
